A study of Homo sapiens with 6 samples.

Results

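The 42 genes described here make cholesterol, fatty acids and storage fat or control that synthesis. They were taken by symbol from tables deposited for HepG2, a line grown from a human hepatocellular carcinoma that keeps many hepatocyte functions, and all 42 were found among 26389 listed genes. They divide into 21 genes of the sterol branch and 21 of the fatty acid branch.

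RNA-seq had been carried out on 3 libraries of HepG2 cells given a control plasmid for short hairpin RNA (shCtrl) and 3 given a plasmid against TCTP (shTCTP). TCTP, the translationally controlled tumour protein, is encoded by TPT1. All 6 libraries shared the parent line, the culture medium with serum and the lipid reagent used for transfection. The labels give a harvest at 48 h for quantitative PCR and no harvest time for sequencing. Nothing in them ties each library to its own culture, so the spread behind each p-value is that between these libraries and may be technical.

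Cells make sterols from acetyl-CoA through mevalonate, isoprenoids, squalene and lanosterol. When membrane sterol is low, the SREBP-2 protein (gene SREBF2) leaves the endoplasmic reticulum, is cut and switches on most genes of this route. INSIG1 holds it back in the endoplasmic reticulum. SREBP-1 (gene SREBF1), together with the carbohydrate-responsive factor MLXIPL, drives fatty acid synthesis in liver, a response that insulin strengthens. Both SREBP proteins act on short DNA elements near gene starts, often beside a CCAAT box bound by NF-Y.

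Libraries held 25427614 to 30486409 reads assigned to genes, and knockdown library 3 was the shallowest. Its mean correlation with the other libraries across genes was 0.977, against 0.986 to 0.987 for the rest. TPT1 ranged from 2249 to 2575 CPM (counts per 1e+06 reads, scaled by TMM factors) in control libraries and from 1559 to 2032 CPM after knockdown (log2 fold change -0.40, SE 0.17, edgeR adjusted p = 0.396), with no overlap between the groups although the test did not pass. All 9 liver markers examined were detected. Of 9 markers of other cell types, 8 were listed. Their summed level was 3.46 to 4 FPKM in control and 3.35 to 3.86 FPKM in knockdown libraries. Most of that sum was PDGFRB, at 1.82 to 2.65 FPKM per library, and CD68, at 0.74 to 1.69 FPKM. COL1A1, COL3A1 and KRT5 were highest in knockdown library 3, at 0.21, 0.14 and 0.12 FPKM. CD3E, PECAM1 and VWF were at or under 0.1 FPKM throughout.

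Promoter sequence was examined as a property of the members that is independent of the counts. RefSeq promoter windows on GRCh38.p14, from 250 bases before to 50 after an annotated start, were matched by symbol for 35 members. DGAT1, FDFT1, FASN, SQLE, PNPLA3, ACAT2 and DGAT2 were not matched. A CCAAT box, read on either strand, was found in at least 1 window of 16 of 18 sterol members and 8 of 17 fatty acid members, compared with 39.7% of all 27305 genes with a window. The core CACNCCAC of the sterol regulatory element was found in 4 of 18 sterol and 2 of 17 fatty acid members, compared with 7.05% of all genes. The E-box CACGTG, which reads the same on both strands, was found in 3 of 18 and 3 of 17, compared with 8.775%. Matches of different motifs were allowed to overlap, and a match is only a description of the letters.

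The stretches that follow were chosen for several reasons. LSS and MVD had the smallest p-values of the sterol branch. MSMO1 was a sterol gene with several CCAAT boxes (4 in its window, while MVK and NSDHL had 5 each). The INSIG1 window held all 3 motifs, as did the SC5D windows. SCD and AGPAT2 were fatty acid branch genes whose groups did not overlap. Each stretch is the longest run within the 250 bases before the RefSeq start that holds no GENCODE exon, written 5′ to 3′ on the gene's strand. Capitals mark CCAAT or its reverse complement ATTGG and, in INSIG1, also GTGGCGTG, a reverse complement of the sterol element core. The E-box of INSIG1 lies outside the printed run. The SCD window also holds the sterol element core across the end of the printed run, where it is not marked. The LSS run is chr21:46228825-46229024 on the minus strand and the MVD run chr16:88663162-88663297 on the minus strand. The MSMO1 run is chr4:165327419-165327622 on the plus strand, and the INSIG1 run chr7:155297628-155297775 on the plus strand. The SCD run is chr10:100346983-100347123 on the plus strand, and the AGPAT2 run chr9:136687458-136687707 on the minus strand.
LSS: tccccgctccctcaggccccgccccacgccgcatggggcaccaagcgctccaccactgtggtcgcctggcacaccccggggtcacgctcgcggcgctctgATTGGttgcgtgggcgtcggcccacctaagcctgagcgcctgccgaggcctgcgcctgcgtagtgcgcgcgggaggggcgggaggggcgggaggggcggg
MVD: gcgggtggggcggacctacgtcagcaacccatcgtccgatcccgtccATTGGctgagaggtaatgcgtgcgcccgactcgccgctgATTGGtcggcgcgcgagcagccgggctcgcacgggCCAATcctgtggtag
MSMO1: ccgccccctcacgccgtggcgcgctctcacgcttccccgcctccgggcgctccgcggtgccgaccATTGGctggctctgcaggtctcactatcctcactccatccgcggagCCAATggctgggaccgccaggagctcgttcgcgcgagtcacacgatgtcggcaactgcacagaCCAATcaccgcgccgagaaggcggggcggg
INSIG1: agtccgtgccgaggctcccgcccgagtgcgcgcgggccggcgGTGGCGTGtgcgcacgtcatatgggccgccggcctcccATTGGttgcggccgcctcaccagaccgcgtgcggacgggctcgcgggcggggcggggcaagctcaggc
SCD: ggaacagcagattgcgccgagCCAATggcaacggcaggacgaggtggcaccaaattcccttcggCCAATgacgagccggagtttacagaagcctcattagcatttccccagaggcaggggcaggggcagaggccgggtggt
AGPAT2: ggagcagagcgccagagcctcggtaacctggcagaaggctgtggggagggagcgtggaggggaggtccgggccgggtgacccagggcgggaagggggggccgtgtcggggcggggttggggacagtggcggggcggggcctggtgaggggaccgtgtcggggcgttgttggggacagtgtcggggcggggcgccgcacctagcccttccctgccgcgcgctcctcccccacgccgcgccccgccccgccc
The MVD and MSMO1 runs each hold 3 CCAAT boxes, SCD holds 2, LSS and INSIG1 hold 1 each, and AGPAT2 holds none.

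Levels of the 42 genes in control cells spanned several orders of magnitude per unit of length. The highest was FDPS, which makes farnesyl diphosphate for sterols and protein prenylation, at 253 ± 30.9 FPKM (SD, n = 3). PLIN2, the protein coating lipid droplets, followed at 195 ± 22.9 FPKM (SD, n = 3). The squalene synthase gene FDFT1 stood at 129 ± 14.8 FPKM and SCD, the stearoyl-CoA desaturase gene, at 113 ± 15.02 FPKM (SD, n = 3 each). These neighbours overlapped partly. FDPS read 218 to 274 FPKM and PLIN2 173 to 219 FPKM, while FDFT1 read 113 to 142 FPKM and SCD 96.4 to 126 FPKM. FASN, the fatty acid synthase gene, lay at 37.3 ± 10.6 FPKM and its regulators SREBF1 and MLXIPL at 7.89 ± 1.95 and 7.23 ± 1.50 FPKM (SD, n = 3 each). The acetyl-CoA carboxylase genes differed in level, ACACA at 2.55 ± 0.423 and ACACB, which serves the mitochondrial surface, at 0.540 ± 0.104 FPKM (SD, n = 3 each).

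**Figure D1:**
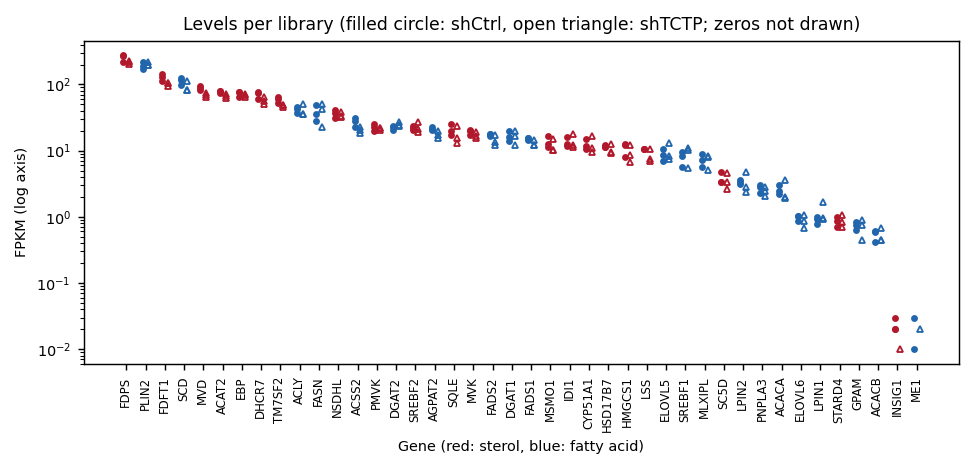
FPKM of each of the 42 genes in each library on a log axis, ordered by mean control level, with filled circles for shCtrl, open triangles for shTCTP, red for sterol and blue for fatty acid genes. FDPS is highest at 253 FPKM on average in control, and INSIG1 and ME1 lie apart below 0.1 FPKM.

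INSIG1 (ENSG00000186480.12, GRCh38 chromosome 7, 155297776 to 155310235, plus strand) had hardly any reads. The control libraries held 2, 2 and 3 of its reads and the knockdown libraries 0, 0 and 1. ME1, the cytosolic malic enzyme that supplies NADPH, was read 1, 3 and 0 times in control libraries and 0, 0 and 2 times after knockdown. Both were removed by the filter on low counts, so 40 members, 20 in each branch, were tested, and no fold is given for these genes. Whether such low counts come from the cells or from the counting of reads cannot be told apart in these tables. INSIG2, the relative of INSIG1, was detected at 29.2 ± 4.82 CPM in control cells (SD, n = 3).

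The series title places TCTP in hepatic metabolism and insulin resistance, and knockdown was compared with control cells for the sterol and the fatty acid branch side by side. All 20 tested sterol genes and 16 of 20 tested fatty acid genes had a lower estimate after knockdown, and no member passed the test. Median log2 fold changes were -0.28 for the sterol branch and -0.17 for the fatty acid branch, compared with -0.00 over all 14197 tested genes, of which 50.4% had a negative estimate. By the edgeR quasi-likelihood test 0 of 40 members passed at an adjusted p under 0.05, compared with 1.41% of all genes (1.26% higher, 0.148% lower). DESeq2 called 2 members lower, LSS and MVD (adjusted p = 0.0384 and 0.0467), compared with 2.21% of all genes in either direction, and limma voom called 0, compared with 1.16%.

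At an unadjusted p under 0.05, 14 of 40 members were lower and 0 were higher, compared with 4.27% and 6.8% of all tested genes. These were 9 of 20 in the sterol branch and 5 of 20 in the fatty acid branch. The knockdown values all lay under the control values for 4 sterol and 7 fatty acid members, compared with 7.3% of all genes, and all above them for 0 members, compared with 9.83%. The sterol branch thus had more members by p-value and the fatty acid branch more by separation. The difference between the branches was not tested. The members were chosen with earlier results of these data known, and genes share their libraries and are not independent replicates. These counts are therefore descriptions. In bulk libraries, fewer cells making a transcript and less transcript per cell cannot be told apart.

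**Figure D2:**
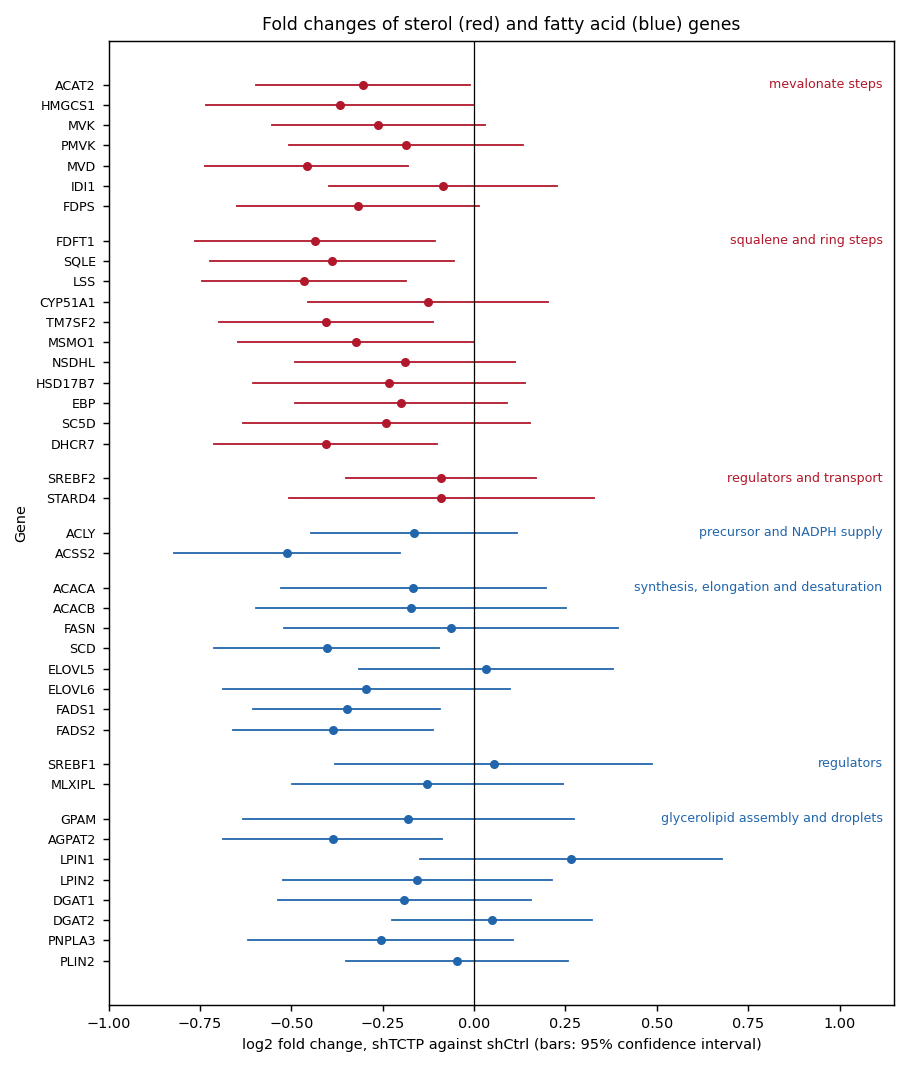
Log2 fold change of each of the 40 tested genes, shTCTP against shCtrl, with its 95% confidence interval, grouped by role (red, sterol; blue, fatty acid). All 20 sterol estimates lie below 0, from -0.47 for LSS to -0.09 for IDI1, and fatty acid estimates run from -0.51 for ACSS2 to 0.27 for LPIN1.

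The mevalonate steps had 7 tested members with a median log2 fold change of -0.30. MVD (ENSG00000167508.10, GRCh38 chromosome 16, 88651935 to 88663161, minus strand), the decarboxylase that closes the mevalonate part, had 152, 176 and 195 CPM in control and 128, 130 and 122 CPM in knockdown libraries. The groups did not overlap, and the knockdown libraries were closely spaced. Its log2 fold change was -0.46 (SE 0.13, 72.8% of control, edgeR adjusted p = 0.119).

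ACAT2, the thiolase that joins acetyl-CoA units, had 244, 274 and 285 CPM in control and 247, 210 and 193 CPM in knockdown libraries. Knockdown library 1 lay above the lowest control library. ACAT2 shares its locus with TCP1 and SOD2 on the opposite strand, and HMGCS1, LSS and DHCR7 overlap antisense genes. Use of strand in counting is not given in the sources used here, so these counts are uncertain where exons overlap. HMGCS1, which makes HMG-CoA, had 45.5, 46.3 and 32.3 CPM in control and 32.5, 25.1 and 38.5 CPM in knockdown libraries, with overlap between the groups. Log2 fold changes were -0.30 (SE 0.14) for ACAT2 and -0.37 (SE 0.17) for HMGCS1, with edgeR adjusted p = 0.426 and 0.447.

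The other mevalonate genes also had negative estimates that did not pass. FDPS stood at -0.32 on the log2 scale (SE 0.16), the kinase genes MVK and PMVK at -0.26 (SE 0.14) and -0.19 (SE 0.15), and IDI1, which isomerizes isopentenyl diphosphate, at -0.09 (SE 0.15). Their edgeR adjusted p ranged from 0.470 to 0.883.

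The squalene and ring steps had 11 tested members with a median log2 fold change of -0.32. LSS (ENSG00000160285.14, GRCh38 chromosome 21, 46188141 to 46228824, minus strand), which closes squalene epoxide into lanosterol, had 57.5, 61.2 and 65.3 CPM in control and 41.3, 41.8 and 50.1 CPM in knockdown libraries. The groups did not overlap, and knockdown library 3 lay nearest to control. Its log2 fold change was -0.47 (SE 0.13, 72.4% of control), with edgeR adjusted p = 0.113, the smallest among all members.

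LSS passed without knockdown library 3 (log2 fold change -0.55, edgeR adjusted p = 0.0351) and with a correction for gene length (-0.52, edgeR adjusted p = 0.0360), against 0.298% and 0.334% of all genes called lower in those fits. SQLE, the squalene epoxidase gene and a rate-limiting step, had 76.4, 64.1 and 58.6 CPM in control and 49.3, 41.0 and 61.8 CPM in knockdown libraries. Knockdown library 3 lay within the control range, while libraries 1 and 2 lay below it. The SQLE log2 fold change was -0.39 (SE 0.16, edgeR adjusted p = 0.356) with all libraries and -0.55 (edgeR adjusted p = 0.0452) without knockdown library 3.

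FDFT1, which commits farnesyl diphosphate to sterols, had 489, 656 and 630 CPM in control and 485, 426 and 402 CPM in knockdown libraries. The groups did not overlap, but control library 1 and knockdown library 1 nearly met. TM7SF2, a sterol C14 reductase gene, had 92.7, 120 and 118 CPM in control and 85.9, 89.1 and 75.3 CPM in knockdown libraries, without overlap. It overlaps VPS51 on the same strand in GENCODE 29, so its count is uncertain where they overlap.

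DHCR7, which makes cholesterol in the last step from 7-dehydrocholesterol, had 164, 224 and 222 CPM in control and 164, 143 and 153 CPM in knockdown libraries. Control library 1 was the low one, and knockdown library 1 lay just above it at 164.1 against 163.7 CPM. Log2 fold changes were -0.43 (SE 0.16) for FDFT1, -0.40 (SE 0.14) for TM7SF2 and -0.41 (SE 0.14) for DHCR7, with edgeR adjusted p = 0.255, 0.227 and 0.249.

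The remaining 6 ring-step genes stood between -0.32 for MSMO1, a sterol C4 methyl oxidase gene, and -0.13 for CYP51A1, the lanosterol demethylase gene. SC5D, HSD17B7, EBP and NSDHL, whose enzymes modify ring intermediates, stood at -0.24, -0.23, -0.20 and -0.19. These estimates moved with single libraries. With 1 library left out they ran from -0.36 to -0.11 for SC5D, -0.46 to -0.07 for HSD17B7, -0.32 to -0.13 for EBP, -0.33 to -0.09 for NSDHL and -0.28 to -0.02 for CYP51A1. HSD17B7 is uncertain, since its pseudogene copy HSD17B7P2 had 236 to 365 reads per library and HSD17B7 itself 402 to 660. CYP51A1 overlaps the protein-coding genes AC000120.2 and AC000120.3 on the same strand and an antisense gene, so its count is uncertain where they overlap. Among the regulators, SREBF2 had 129.9, 126 and 125 CPM in control and 112, 118 and 128 CPM in knockdown libraries (log2 fold change -0.09, SE 0.12, 95% confidence interval -0.35 to 0.17, edgeR adjusted p = 0.846). STARD4, a sterol carrier gene, stood at -0.09 (SE 0.20).

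**Figure D3:**
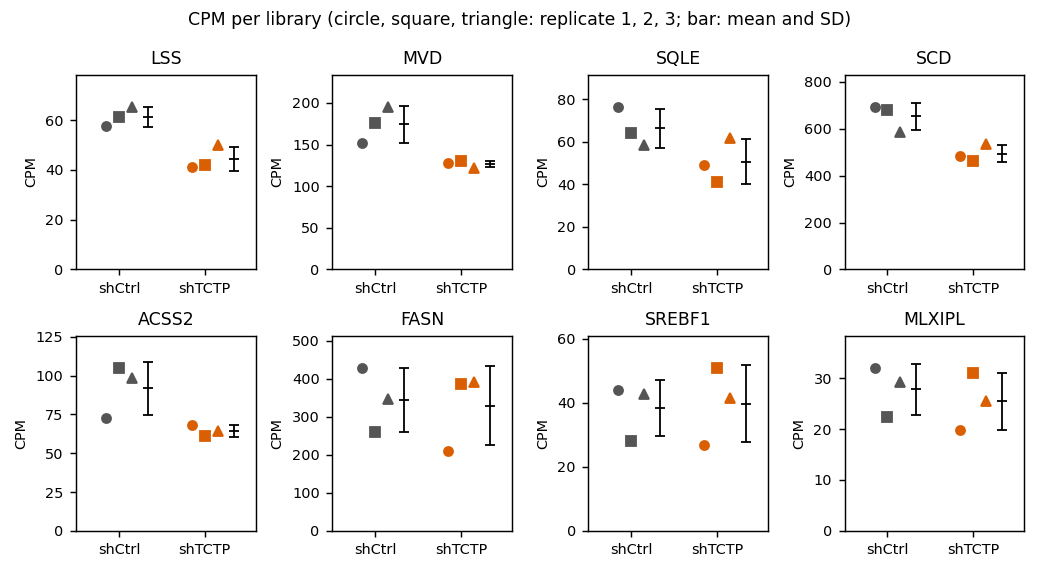
CPM in each library for 8 genes, with circles, squares and triangles for replicates 1, 2 and 3, and black bars for the mean and SD of 3 libraries. LSS, MVD, SCD and ACSS2 have no overlap between groups, SQLE overlaps through knockdown library 3, and FASN, SREBF1 and MLXIPL are lowest in control library 2 and knockdown library 1.

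In the fatty acid branch, precursor supply held the lowest estimate of all members. ACSS2 (ENSG00000131069.19, GRCh38 chromosome 20, 34872146 to 34927962, plus strand), which turns acetate into acetyl-CoA, had 72.6, 105 and 98.6 CPM in control and 68.5, 60.8 and 64.3 CPM in knockdown libraries. The groups did not overlap, although control library 1 lay close to knockdown library 1. Its log2 fold change was -0.51 (SE 0.15, 70.2% of control, edgeR adjusted p = 0.117), and -0.66 without control library 1 (edgeR adjusted p = 0.0329), where 0.0414% of all genes were called lower. It overlaps GGT7 on the opposite strand. ACSS2 also passed with no filter on low counts (edgeR adjusted p = 0.0339), where 1.2% of all genes passed in either direction. ACLY, which splits citrate into acetyl-CoA, stood at -0.16 (SE 0.13).

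The members include 3 desaturase genes. SCD (ENSG00000099194.5, GRCh38 chromosome 10, 100347124 to 100364834, plus strand), which puts the first double bond into saturated fatty acids, had 693, 679 and 587 CPM in control and 484, 461 and 535 CPM in knockdown libraries. FADS1, the delta-5 desaturase gene, had 125, 136 and 130 CPM in control and 106, 99.4 and 102 CPM in knockdown libraries. FADS2, the delta-6 desaturase gene, had 83.7, 97.3 and 99.2 CPM in control and 66.0, 71.5 and 76.8 CPM in knockdown libraries. None of the 3 overlapped between groups.

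Log2 fold changes were -0.40 (SE 0.15) for SCD, -0.35 (SE 0.12) for FADS1 and -0.39 (SE 0.13) for FADS2, with edgeR adjusted p = 0.261, 0.238 and 0.211. The annotated span of FADS1 lies inside that of FADS2 on the opposite strand, so their counts are uncertain where exons overlap. FADS3, a related gene outside the members that was added after its values were seen, stood at -0.04 (SE 0.15) with overlapping groups. ELOVL6, which lengthens palmitate, also did not overlap, with 6.89, 7.42 and 6.57 CPM in control and 6.13, 4.64 and 6.25 CPM in knockdown libraries (log2 fold change -0.29, SE 0.19, edgeR adjusted p = 0.601). ELOVL5, which lengthens polyunsaturated chains, stood at 0.03 (SE 0.16), ACACA at -0.17 (SE 0.17) and ACACB at -0.17 (SE 0.20).

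FASN (ENSG00000169710.6, GRCh38 chromosome 17, 82078333 to 82098332, minus strand) varied more within groups than between them. It had 428, 259 and 346 CPM in control and 211, 386 and 393 CPM in knockdown libraries. SREBF1 had 44.0, 28.2 and 42.6 CPM in control and 27.0, 50.8 and 41.4 CPM in knockdown libraries. MLXIPL had 32.0, 22.3 and 29.3 CPM in control and 19.9, 31.1 and 25.5 CPM in knockdown libraries. In all 3 genes control library 2 and knockdown library 1 were the lowest of their groups, and the groups overlapped widely.

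Log2 fold changes were -0.06 for FASN (SE 0.22, 95% confidence interval -0.52 to 0.39), 0.05 for SREBF1 (SE 0.21, -0.38 to 0.49) and -0.13 for MLXIPL (SE 0.18, -0.50 to 0.24). All 3 intervals include 0, and that of FASN reaches the estimate of ACSS2, so a FASN difference of that size could not be told from none with 3 libraries a group. DGAT1, a triglyceride synthase gene that overlaps HSF1, was likewise lowest in those libraries, at 56.2 and 48.9 CPM, against 61.6 to 84.6 CPM in the other control and knockdown libraries.

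Among 8 genes of glycerolipid assembly and droplets the median log2 fold change was -0.17. AGPAT2, which makes phosphatidic acid, had 32.4, 37.2 and 35.1 CPM in control and 25.8, 30.9 and 23.4 CPM in knockdown libraries, without overlap (log2 fold change -0.39, SE 0.14, edgeR adjusted p = 0.271). PNPLA3, a droplet acyltransferase or lipase tied to fatty liver, had 8.63, 8.50 and 7.21 CPM in control and 6.30, 7.13 and 6.96 CPM in knockdown libraries, also without overlap (log2 fold change -0.26, SE 0.17, edgeR adjusted p = 0.627). It overlaps SAMM50 on the same strand.

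LPIN1, a phosphatidate phosphatase gene, had 6.10, 6.17 and 5.49 CPM in control and 6.44, 5.95 and 8.98 CPM in knockdown libraries. Its estimate was the highest of all members (0.27, SE 0.20, edgeR adjusted p = 0.670) and was 0.07 without knockdown library 3, the high one. PLIN2 had 453, 550 and 453 CPM in control and 493, 467 and 451 CPM in knockdown libraries, overlapping (-0.05, SE 0.14, edgeR adjusted p = 0.943). LPIN2 stood at -0.16, GPAM, the first acyltransferase of glycerolipid synthesis, at -0.18, DGAT1 at -0.19 and DGAT2 at 0.05.

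**Figure D4:**
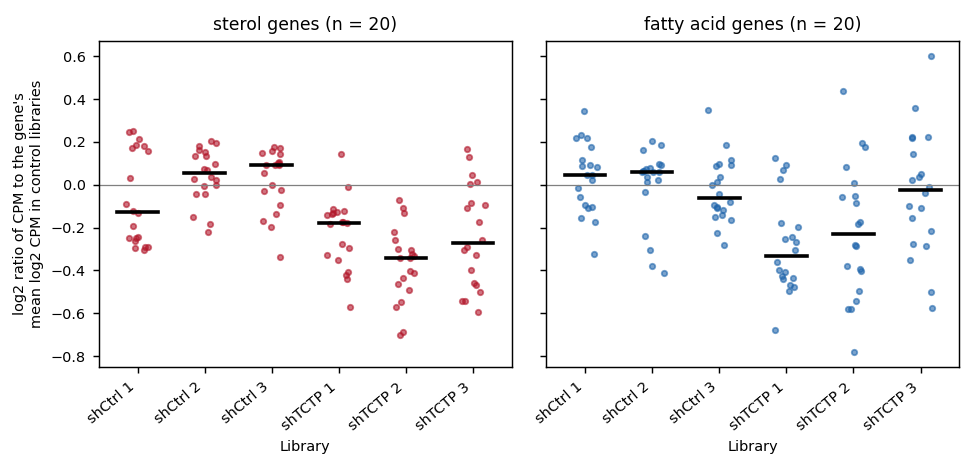
Each point is 1 tested gene in 1 library, as the log2 ratio of its CPM to its own mean log2 CPM in the 3 control libraries, and black lines are medians over 20 genes. Sterol medians are -0.18, -0.34 and -0.27 in the knockdown libraries, and fatty acid medians are -0.33, -0.23 and -0.03.

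Per library, relative to the mean of the control libraries, the median sterol gene stood at -0.13, 0.05 and 0.09 on the log2 scale in control and -0.18, -0.34 and -0.27 in knockdown libraries. The median fatty acid gene stood at 0.05, 0.06 and -0.06 in control and -0.33, -0.23 and -0.03 in knockdown libraries. Sterol knockdown medians were thus all below the control medians, with control library 1 close to knockdown library 1. In the fatty acid branch knockdown library 3 lay within the control medians. It was the highest knockdown library for 11 and the lowest for 3 of 20 fatty acid members, and the highest for 9 and the lowest for 8 of 20 sterol members.

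Gene length moved with that library. Across the 40 tested members, the difference of knockdown library 3 from libraries 1 and 2 was larger for longer genes on the log2 scale (Pearson r = 0.66, Spearman rho = 0.66), and over 13977 genes r was 0.36. Genes share their libraries and are not independent replicates, so these values are descriptions. This difference was -0.49 for the short gene HSD17B7 and -0.23 for PMVK, and 0.62 for the long genes ACACA and LPIN2. Fatty acid members had a median length of 4940 bases and sterol members one of 2789 bases. With the length correction the medians were -0.27 for the sterol branch and -0.24 for the fatty acid branch, and without knockdown library 3 both were -0.27.

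**Figure D5:**
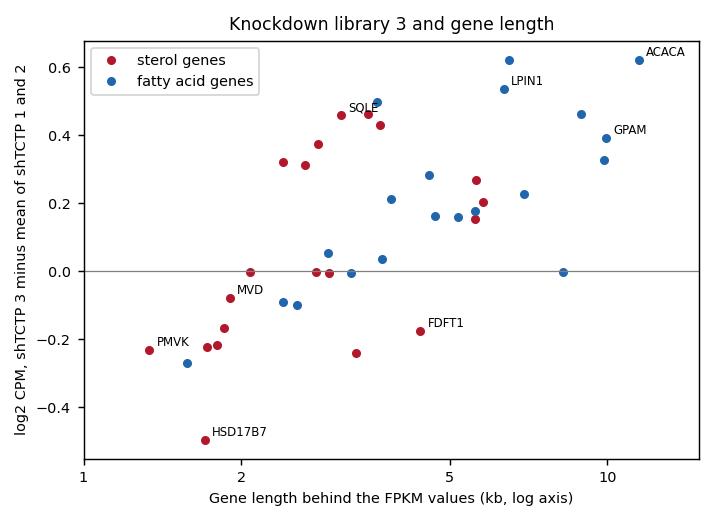
For each tested member, log2 CPM in knockdown library 3 minus the mean of knockdown libraries 1 and 2, against the gene length behind the FPKM values on a log axis (red, sterol; blue, fatty acid). Most of the shortest genes lie below 0 and most of the longest above it, from -0.49 for HSD17B7 to 0.62 for ACACA.

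GC content of the transcript moved with libraries too. Across the 40 tested members, the difference of control library 1 from control libraries 2 and 3 was lower for GC-rich genes (Pearson r = -0.38, Spearman rho = -0.40), and over 13977 genes r was -0.36. The relation was present in the 20 sterol members (r = -0.77, rho = -0.69) and near 0 in the 20 fatty acid members (r = 0.04, rho = -0.04). Both libraries moved with both properties. Control library 1 gave r = 0.49 with log2 length over the 40 members, and knockdown library 3 gave r = -0.36 with GC content. The difference of control library 1 was 0.37 for SC5D and 0.38 for MSMO1, both GC-poor. It was -0.45 for DHCR7 (58.3% GC) and also for NSDHL (50.5%), which lies near the sterol median of 50.3%. With a correction for GC content the medians were -0.30 for the sterol and -0.19 for the fatty acid branch, and 0 members passed the edgeR test.

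Neighbouring genes of lipid metabolism were taken as 10 lists by role. Of 123 listed genes 118 were found and 102 tested, 0 passed in either direction (1.41% over all genes), and 65 had negative estimates with a median log2 fold change of -0.06. At an unadjusted p under 0.05, 4 of 102 were lower and 5 of 102 higher, compared with 4.27% and 6.8% of all tested genes. TMEM97, a sterol-regulated membrane protein gene, had the smallest adjusted p of these lists. Its CPM was 83.6 ± 2.77 with shCtrl and 61.2 ± 6.74 with shTCTP (SD, 3 libraries each), a log2 fold change of -0.45 with edgeR adjusted p = 0.120.

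Control of SREBP cleavage and decay was represented by 11 tested genes with a median of -0.05. INSIG2, which retains the SREBP escort SCAP in the endoplasmic reticulum, had 21.2 ± 2.50 CPM with shTCTP (SD, 3 libraries; log2 fold change -0.46, edgeR adjusted p = 0.212). Of 15 tested genes of sterol uptake, transport and esterification (median -0.07), LCAT, which esterifies plasma cholesterol, stood at 0.43. The 6 tested LXR and efflux genes had a median of -0.10, with NR1H3 at -0.22, the 5 tested bile acid and oxysterol enzymes -0.16, with BAAT at -0.48, and the 11 tested isoprenoid genes -0.05, with PGGT1B at 0.33.

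On the fatty acid side, acyl-CoA synthetase genes had estimates of both signs. ACSL5 had 63.0 ± 6.42 CPM with shCtrl and 85.5 ± 4.46 CPM with shTCTP (SD, 3 libraries each), a log2 fold change of 0.44 with edgeR adjusted p = 0.133, while ACSS1, the mitochondrial acetate enzyme gene, stood at -0.39. The median of 8 tested members was -0.21. All 9 tested genes of citrate and NADPH supply had negative estimates (median -0.14), among them IDH1 at -0.30 and PGLS at -0.27. The 14 further fatty acid enzymes had a median of -0.02, with ELOVL2 at 0.25.

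Of the 17 further glycerolipid and droplet genes (median -0.03), AGPAT9, also called GPAT3, which starts glycerolipid synthesis outside mitochondria, had 6.10 ± 0.939 CPM with shCtrl and 9.24 ± 0.562 CPM with shTCTP (SD, 3 libraries each), a log2 fold change of 0.60 with edgeR adjusted p = 0.137. GPAM, which starts glycerolipid synthesis in the mitochondrial membrane, stood at -0.18, and the difference between these estimates was not tested. The 6 tested subunits of AMPK, the kinase that restrains both branches, had a median of 0.21, with PRKAG2 at 0.85 from a level below 1 CPM.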

How the data were processed

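Poly(A)-selected directional libraries had been sequenced as 150-base paired reads, per the labels' protocols. The authors deposited raw read counts per gene (26389 genes) and FPKM values (26184 genes). Bcl2fastq, TopHat2, edgeR and GRCh38 are named in the submitters' processing notes, without versions. For read assignment, annotation and strand, the settings were not given in the sources used here. Libraries were grouped by title.

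Counts were tested with edgeR 4.0.16 (R 4.3.3): filterByExpr, TMM scaling, the robust quasi-likelihood test with group as the only term, and Benjamini-Hochberg adjustment over all 14197 tested genes (threshold 0.05). Standard errors came from the estimate and the F statistic. Precision depended on reads per library and on the spread between the 3 libraries of a group. FASN, with 6148 to 13040 reads per library, had an SE of 0.22. STARD4, with 122 to 174 reads, had one of 0.20. FPKM served to compare levels between genes. Gene lengths came from counts and FPKM (at least 5 reads and 0.1 FPKM), GC content from the longest GENCODE 29 transcript, and gene coordinates from GENCODE 29.

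The 18 alternatives were RLE and upper quartile scaling, no filter or 1 CPM in 3 libraries, a replicate block, DESeq2 1.42.0, limma 3.58.1 voom, limma on log2 FPKM (pseudocounts 1 and 0.1), dispersion without robust fitting, loess corrections for length or GC (span 0.3), and each library left out. The procedure was tested on simulated data. Counts were drawn independently for each gene, without the length and GC shifts seen between these libraries, so the simulation does not cover them. The members and lists were chosen with earlier results of these data known. All members are named, with values per library for the 8 smallest p-values of each branch and for HMGCS1, SQLE, INSIG1, SREBF2, FASN, SCD, SREBF1, MLXIPL and PLIN2. From each other list the 1 or 2 genes with the smallest p-values are named, and DGAT1 was set beside FASN after its values were seen. Figures were drawn with matplotlib 3.10.9.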

Additional observations from a re-analysis of the deposited data

How the results depend on the processing

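No member passed in the main edgeR test, and 17 of 20 sterol members but only 11 of 20 fatty acid members were negative with every setting (18 alternatives), and LPIN1 was positive with every setting. The sterol count was 2 with DESeq2 (LSS, MVD), 1 with the length correction (LSS) and 0 to 2 with 1 library left out, where the 2 (LSS, SQLE) came without knockdown library 3. The fatty acid count was 1 without a filter (ACSS2) and 0 to 1 with 1 library left out, the 1 (ACSS2) coming without control library 1. The causes were not tested. On log2 FPKM the sterol median was -0.17 with a pseudocount of 1 and -0.18 with 0.1, where the median of all genes was 0.06 and 0.09, and the fatty acid median was -0.05 and -0.08. With 1 library left out the sterol median ran from -0.34 to -0.25 and the fatty acid median from -0.27 to -0.12.

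Signs near 0 turned. On log2 FPKM the median of all genes was itself 0.06 and 0.09 with pseudocounts of 1 and 0.1. IDI1, SREBF2, STARD4 and FASN were positive there but below that median. On log2 FPKM with pseudocounts of 1 and 0.1, IDI1 was 0.0171 and 0.0175, SREBF2 0.0122 and 0.0122, STARD4 0.0121 and 0.0223, FASN 0.0175 and 0.0166, and PLIN2 0.0629 and 0.0632. With 1 library left out, log2 fold changes ran from -0.19 to 0.0109 for IDI1, -0.23 to 0.18 for FASN, -0.14 to 0.15 for ELOVL5, -0.18 to 0.27 for SREBF1, -0.31 to 0.0213 for MLXIPL, -0.32 to 0.0364 for GPAM, -0.31 to 0.00246 for DGAT1, -0.0340 to 0.0943 for DGAT2 and -0.10 to 0.0506 for PLIN2.

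Deviations of same-numbered libraries from their group means correlated at -0.23, 0.0015 and -0.20, and no library correlated best with its own number. Each group of 3 was centred on its own mean, so these correlations depend on each other. They cannot show whether same-numbered libraries were prepared together, which the labels do not say. With the replicate block 0 sterol and 0 fatty acid members passed, the medians were -0.28 and -0.18, and 130 genes passed overall instead of 200. The number of libraries, 3 a group, limits the precision of every estimate.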
